A study of Felis catus with 12 samples.

Results

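Adipocytes in the cat heart lie mostly in the epicardial fat and were measured in this study as an adipocyte percentage of stained sections, while RNA of the left ventricular free wall was sequenced from the same animals. Compared were 10 of 12 left ventricle libraries, those whose labelled cat is among the sequenced cats that the study names and has an adipocyte percentage in its list of animals. The other 2 libraries carry labels, cats 22 and 29, that are not among the sequenced cats named, and were left out for that reason and not for their RNA. There was 1 library per cat, so that cats are the replicates. The percentage itself was read from sections stained with haematoxylin and eosin, as adipocyte area over adipocyte and cardiomyocyte area in a whole midventricular cross section that also holds the right ventricle. The sequenced tissue lay next to that section. The question was whether any gene's RNA level in the left ventricle follows the adipocyte percentage of the heart. All tissue was collected after death.

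An adipocyte stores triglyceride in 1 large lipid droplet coated by perilipin, releases fatty acids through lipases, and secretes hormones such as adiponectin and leptin. Epicardial fat lies directly on the myocardium without a separating fascia, and cardiomyocytes, which burn fatty acids as their main fuel, share many lipid genes with fat cells. Genes such as CD36 and LPL therefore do not tell the cell types apart, whereas ADIPOQ, PLIN1, CIDEC and LEP are closer to fat cells alone.

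The percentage of the highest cat was 5.18 times that of the lowest. The cats were split at the median into a lower group of 5, cats 35, 11, 37, 38 and 30 in rising order, and an upper group of 5, cats 23, 10, 15, 31 and 36. The lowest cat of the upper group lay 1.15 times above the highest of the lower group, while the highest cat lay 1.39 times above the next, so the split runs between cats of similar percentage. The lower group held 4 cats with heart failure and 1 with arterial thromboembolism, aged 4 to 18 years where known (4 of 5 cats). The upper group held 2 with heart failure, 2 with arterial thromboembolism and 1 without known cardiac death, cat 36, aged 2 to 14 years. Domestic shorthair cats made up 3 of the lower group, with 1 Maine Coon and 1 Birman, and 4 of the upper group, with 1 Maine Coon. The lower group had 3 neutered males, 1 neutered female and 1 cat of unknown sex, and the upper group 2 neutered males and 3 neutered females. Body condition was known for 4 cats of the lower group, cats 11 and 30 underweight and cats 37 and 38 of optimal weight. It was known for 2 cats of the upper group, cat 31 of optimal weight and cat 36 overweight.

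Technical steps did not fall evenly over the cats. The sections of 4 cats of the upper group and 1 of the lower group were stained and scanned in a second batch, for which a separate pixel classifier was trained (Fisher's exact test, two-sided p = 0.206). Flow cell A carried 2 cats of each group, flow cell B 3 of the upper and 1 of the lower, and flow cell C 2 of the lower group only. Reads on genes ranged from 789257 to 2263110 per library. Spearman's rho of the percentage with reads was -0.0303 (exact permutation p = 0.946, n = 10, Pearson's r 0.0906, p = 0.801), and with the number of genes detected, 12189 to 13987 per library, it was -0.442 (exact permutation p = 0.204, adjusted over 4 measures p = 0.535, Pearson's r -0.415, p = 0.235). Leaving out cats 31 and 36, whose percentages lie farthest from the median percentage, gave a Pearson's r of -0.447 for reads and of -0.623 for genes detected. Centred on staining batches, rho was 0.264 for reads and -0.194 for genes detected.

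Of the genes closer to fat cells alone, ADIPOQ, CIDEC and LEP were nearly absent from these libraries. ADIPOQ, which codes for adiponectin, had 1 read in cat 35, 4 in cat 10, 1 in cat 31 and 0 in the other 7 cats. CIDEC, which enlarges lipid droplets, had 2 reads in cat 35 and 0 elsewhere. LEP, the leptin gene, had 8 reads in the lower group and 2 in the upper group. Cat 36, the highest in adipocyte percentage, had 0 reads of all 3 genes. A count of 0 allows up to 3 reads, which is 1.33 to 3.80 CPM (reads relative to the library's total) depending on the library, counting error only, and no difference in these genes was detectable at this depth.

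Further adipocyte genes had a few reads in most cats. PLIN1, the lipid droplet coat protein of fat cells, had 7, 3, 2, 14 and 5 reads in the lower group and 1, 7, 3, 1 and 10 in the upper group, in rising order of the percentage. LIPE, the hormone-sensitive lipase, had 9, 1, 5, 8 and 5 reads in the lower group and 6, 2, 5, 3 and 4 in the upper group. The ranges of the groups overlapped for both genes. PPARG, the transcription factor of fat cell differentiation, had 22 reads in the lower group (3, 10, 1, 0 and 8) and 7 in the upper group (2, 2, 0, 3 and 0). These reads are not scaled for depth, and cats 11 and 30 gave most of those in the lower group. CIDEA, a lipid droplet protein, had 62 and 15 reads, of which cats 35 and 38 gave 21 and 29.

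Of 30 adipocyte markers, 27 were listed and 10 had at least 10 reads in at least 3 cats, the condition for testing. FABP4, TRARG1 and ADH1C were not analysed here. Of the 17 markers below that condition, 15 had at most 10 reads in every cat, among them ACVR1C, which had none. The 10 that were tested include genes that cardiomyocytes, endothelium or smooth muscle also express. None passed an unadjusted p of 0.05 in either test, against 3.1% of all 8715 genes tested for the rank correlation and 2.15% for the groups. The sign of rho was positive for 5 and negative for 5, with a median of 0.00, beside a median of 0.00606 over all genes. Centred on staining batches, 3 of the 10 had positive rho (median -0.14).

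**Figure D1:**
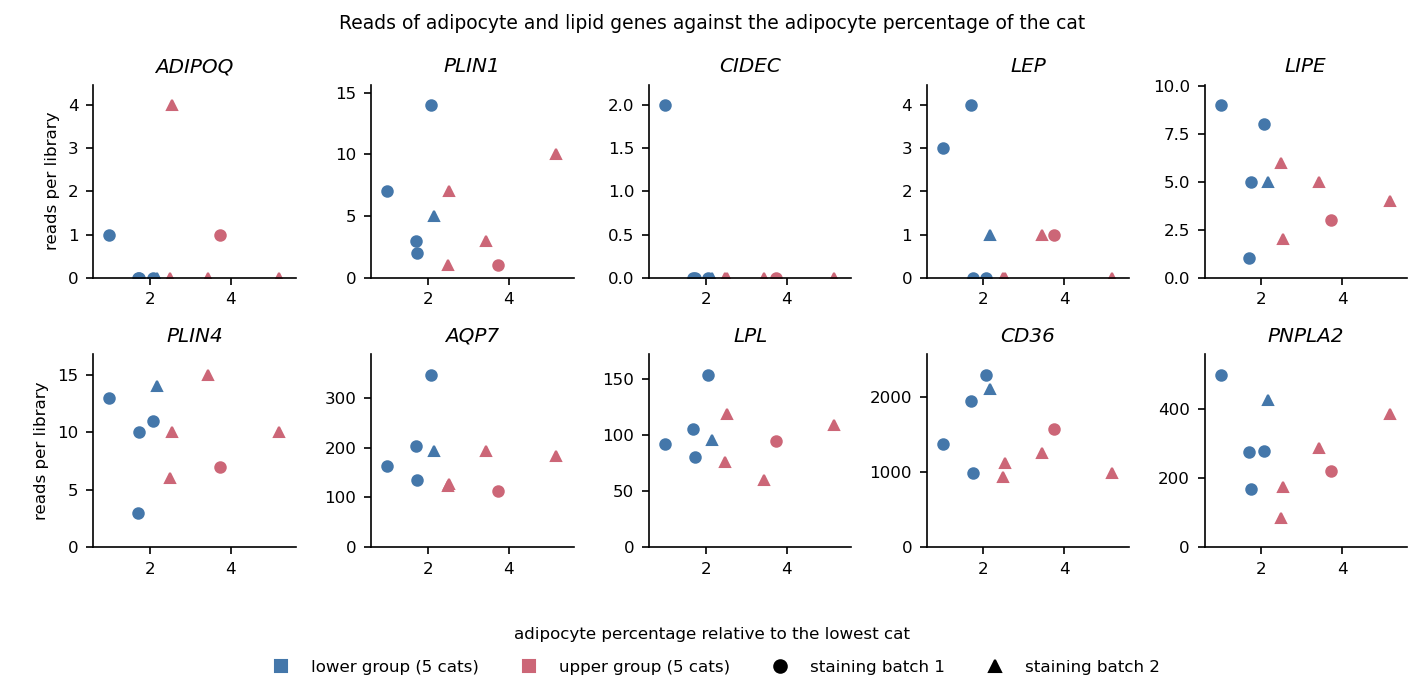
Reads per library (vertical axes, not scaled for depth, each panel with its own range from 0) of 10 adipocyte and lipid genes against the adipocyte percentage relative to the lowest cat (horizontal axes), 1 point per cat. ADIPOQ, CIDEC and LEP stay at or below 4 reads in every cat, and the blue points of the lower group and the red points of the upper group overlap in every panel.

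The lipid uptake genes among them were well covered. CD36, the fatty acid translocase, had deposited values (reads divided by the size factor of the library) of 1083, 938, 1403, 1684 and 1771 in the lower group and 1263, 1258, 1702, 1248 and 882 in the upper group. The ranges overlapped almost fully, and the difference between groups on the log2(value + 1) scale was -0.10 ± 0.25 (SE, n = 5 and 5, limma 95% confidence interval -0.64 to 0.44). LPL, which releases fatty acids from lipoproteins, had values of 72.5, 51.2, 116, 113 and 80.8 in the lower group and 102, 134, 81.7, 75.8 and 97.1 in the upper group. Its log2 difference was 0.21 ± 0.27 (interval -0.37 to 0.79). AQP7, a glycerol channel, had a log2 difference of -0.02 ± 0.31, and PNPLA2, the lipase that opens triglyceride breakdown, one of -0.16 ± 0.37. The intervals of all 4 included 0.

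Spearman's rho of the other tested markers was 0.0424 for PLIN4, a droplet coat protein of fat and muscle, 0.285 for GPD1, which makes glycerol 3-phosphate, and 0.0424 for ADIRF, first described in fat. It was -0.0711 for RETN, the resistin gene, and -0.2 for G0S2, an inhibitor of PNPLA2. CFD, which codes for the complement protease adipsin, had a rho of -0.273, with a value of 42.2 in cat 15 and of 1.34 to 6.8 in the other cats of the upper group. Of 18 brown and beige adipocyte genes 4 were tested, with PPARGC1A and EPSTI1 the most abundant, and 3 had negative rho (median -0.176). CIDEA was below the condition for testing, and 4 genes are too few to describe these cells.

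Across all genes, 0 of 8715 passed an adjusted p of 0.05 (0.0%) in either test. The rank test took Spearman's rho with an exact permutation over every order of the 10 cats, and the groups were compared by limma, both two-sided with Benjamini-Hochberg adjustment over all genes tested. The smallest adjusted p was 1 for the rank correlation and 0.999 for the groups. At an unadjusted p of 0.05, 270 genes (3.1%) passed the rank test, 136 with positive rho (1.56%) and 134 with negative rho (1.54%). The count would be about 436 on average if all orders of the cats were equally frequent for each gene. The groups gave 187 (2.15%), 78 higher (0.895%) and 109 lower (1.25%) in the upper group. On the recovered reads, edgeR's quasi-likelihood test called 0 genes after adjustment and 179 before, and DESeq2 called 0 and 204. Without scaling for depth, the median log2 difference of all genes moved to -0.41 and the split to 3 higher and 350 lower, so changes are given relative to the scaled values.

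**Figure D2:**
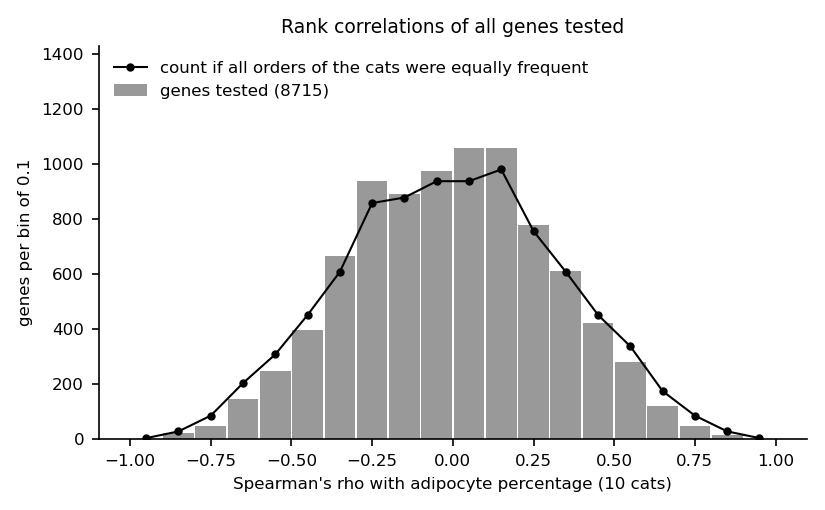
Number of genes (vertical axis) per bin of 0.1 in Spearman's rho with the adipocyte percentage (horizontal axis), for 8715 genes over 10 cats. The grey bars lie below the black line, the count if all orders of the cats were equally frequent, in both tails, and the range is -0.939 to 0.915.

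The precision was limited. The median standard error of a log2 difference between groups was 0.37 and the median width of its 95% interval 1.58. The median read count of a tested gene and library was 27.5.

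The genes at the ends of the ranking follow. Their place in the ranking was chosen from these values, so rho and p are a description, and no gene among them passed adjustment. UXS1, which makes UDP-xylose for proteoglycan chains, had the highest rho, 0.915 (exact permutation p = 0.000533 before adjustment, n = 10). Its values were 50.4, 54.5, 67.2, 61 and 139 in the lower group and 71.2, 98.1, 109, 151 and 161 in the upper group. Cat 30 lay above 3 cats of the upper group, so the groups overlapped, with a log2 difference of 0.70 ± 0.31. Centred on staining batches its rho was 0.869, and within the second batch alone it was 0.4 over 5 cats.

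CTNNA3, the alpha-T-catenin of the intercalated disc that joins cardiomyocytes, had a rho of 0.903. Its values were 64.6, 39.1, 74.4, 81.6 and 82.5 in the lower group and 98.1, 87.9, 85.8, 90.9 and 129 in the upper group. The groups did not overlap, as for 35 of all genes (0.402%), 16 higher (0.184%) and 19 lower (0.218%) in the upper group, but the gap was small, and the log2 difference was 0.55 ± 0.25. CMC4, a small protein of the mitochondrial intermembrane space whose gene overlaps another, and ZNF654, a zinc finger gene, both had a rho of 0.879.

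HSF1, the transcription factor of the heat shock response, had a rho of 0.83. Its values were 120, 181, 159, 187 and 120 in the lower group and 189, 203, 259, 196 and 339 in the upper group, with no overlap and a log2 difference of 0.62 ± 0.24. GABARAP, which coats the autophagosome, also had a rho of 0.83, with 462 to 609 in the lower group and 611 to 785 in the upper group. POLR1D, a subunit shared by RNA polymerases I and III, and BORCS8, of the complex that positions lysosomes, completed the 8 highest, each with a rho of 0.83.

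The lowest rho, -0.939 (exact permutation p = 0.000206 before adjustment), was that of NBL1, a secreted antagonist of bone morphogenetic proteins. Its values were 12.6, 22.7, 10, 10.295 and 7.58 in the lower group and 5.4, 4.51, 5.45, 3.19 and 2.67 in the upper group. The groups did not overlap and the log2 difference was -1.33 ± 0.41, but every library of the upper group rested on 3 or 4 reads.

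TLK1, a kinase of chromatin assembly, had more reads, 24 to 90 per library, and a rho of -0.867. Its values were 70.9, 41.5, 73, 52.9 and 46.3 in the lower group and 34.9, 31.6, 32.7, 31.9 and 24 in the upper group, without overlap, and the log2 difference was -0.83 ± 0.25. JAK2, the kinase of cytokine receptors, had a rho of -0.879 with 12.6 to 26.8 in the lower group and 8.01 to 21.5 in the upper group, which overlap. CNP, a myelin enzyme, had a rho of -0.867, and E2F3, a cell cycle transcription factor, and GOLGB1, the Golgi protein giantin, one of -0.842. UFD1, a partner of the p97 ATPase, had a rho of -0.83.

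**Figure D3:**
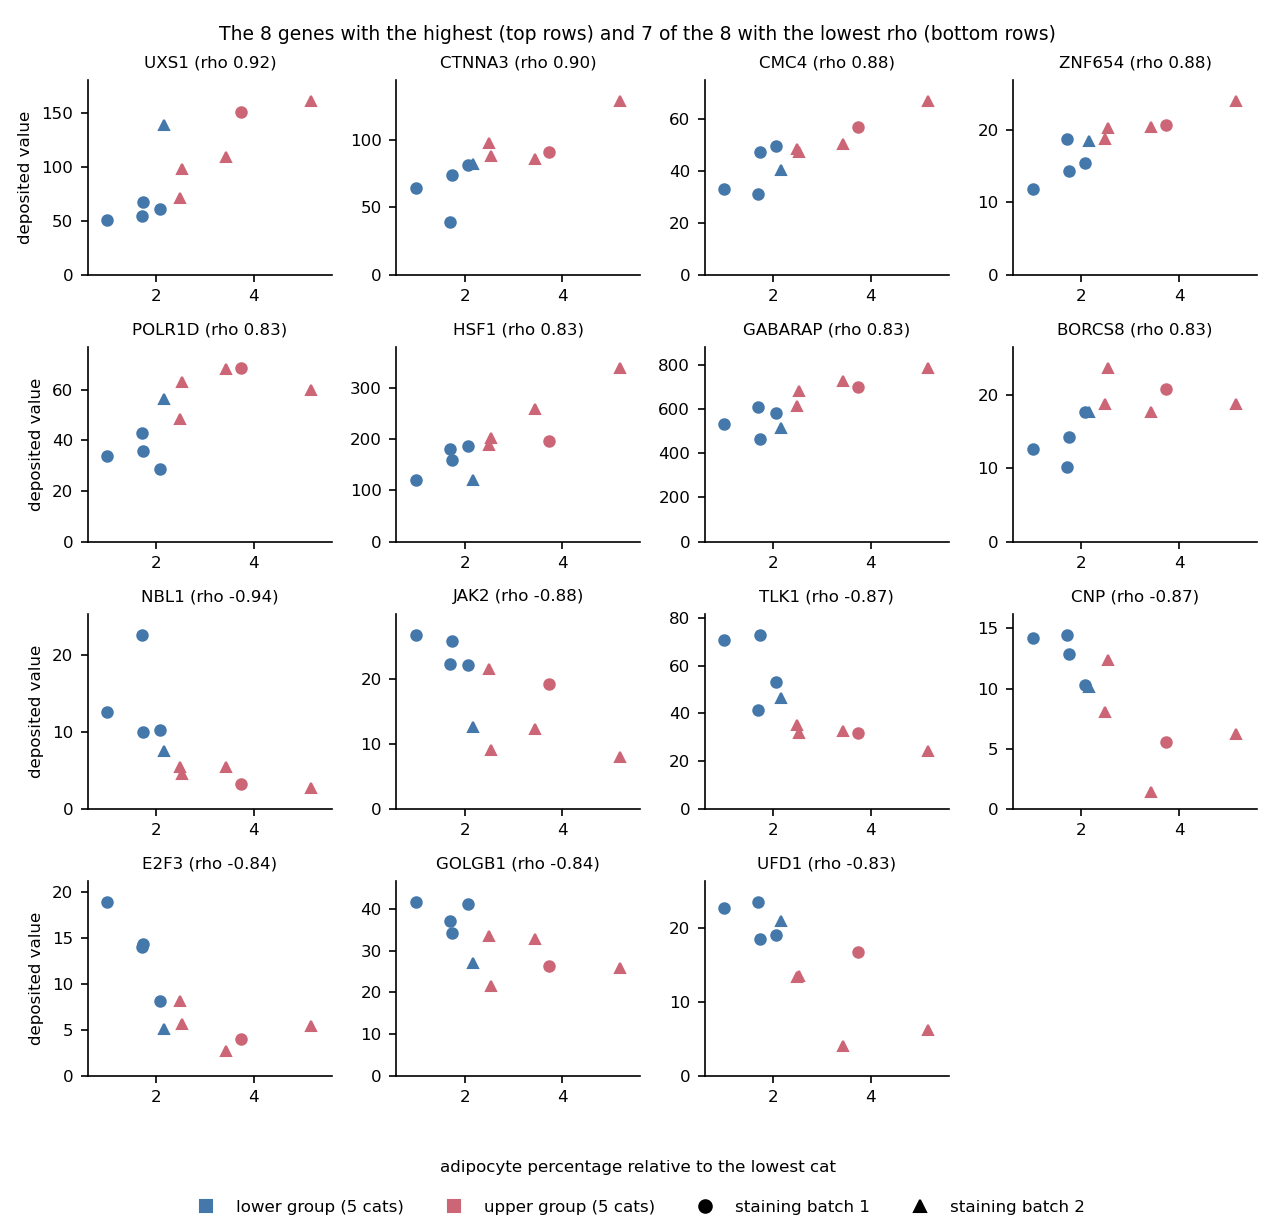
Deposited values (vertical axes, each from 0) of the 8 genes with the highest and 7 of the 8 with the lowest rho against the adipocyte percentage relative to the lowest cat (horizontal axes), 1 point per cat. Triangles mark the second staining batch, which holds 4 of the 5 red points of the upper group and 1 blue point of the lower group in each panel.

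The comparison of groups put other genes first. PFKP, the platelet type of phosphofructokinase in glycolysis, had 0, 6.8, 1.43, 0 and 5.05 in the lower group and 10.7, 15.8, 21.8, 20.7 and 7.12 in the upper group. The log2 difference was 2.55 ± 0.65 (limma p = 0.0015 before adjustment, 0.999 after), from 0 to 14 reads in the lower and 8 to 26 in the upper group. MRPS2, of the small mitochondrial ribosomal subunit, had 12.9 to 20.6 in the lower group and 24.2 to 58.5 in the upper group, a log2 difference of 1.05 ± 0.30. SUCLG2, the GTP-specific subunit of succinyl-CoA synthetase in the citric acid cycle, had 8.58 to 27.5 and 34 to 42.8, a difference of 1.06 ± 0.33. QRICH1, a transcriptional regulator, and SCCPDH differed by 1.20 ± 0.37 and 0.72 ± 0.24.

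On the other side CWC27, a spliceosomal prolyl isomerase, had 21.3, 27.5, 32.9, 19.1 and 18.5 in the lower group and 9.4, 4.51, 6.81, 16 and 8.01 in the upper group, a log2 difference of -1.39 ± 0.35 (limma p = 0.00137 before adjustment, 0.999 after). ECM1, an extracellular matrix protein, had 31.5 to 66.2 and 19.2 to 30.9, a difference of -0.90 ± 0.27. THOC2, of the complex that couples transcription to messenger RNA export, differed by -1.46 ± 0.42. With staining batch as a covariate the differences of PFKP and CWC27 were 2.29 and -0.95. Those of UXS1, CTNNA3 and JAK2 shrank to 0.48, 0.39 and -0.20, where JAK2 had -0.66 without the covariate. Those of HSF1, SCCPDH, ECM1 and THOC2 grew in size, to 0.65, 0.83, -0.93 and -1.52. The genes named here from the ranking or the groups were chosen as the most extreme in these same cats. A kept sign was therefore largely set by that choice and is no support. Their sign held under the alternatives that were run, with 3 exceptions. SCCPDH had a rho of 0 in staining batch 2 alone, and without scaling for depth, where the median of all genes is lower, the log2 difference was -0.01 for ZNF654 and -0.05 for GABARAP.

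Lipid pathways of the tissue were looked at by list. Of 20 tested genes of fatty acid and triglyceride synthesis, 8 had positive and 12 negative rho, with a median of -0.0727 (-0.125 without cat 35), and 0 passed adjustment. ACACA, the acetyl-CoA carboxylase that starts fatty acid synthesis, was the only list member below an unadjusted p of 0.05 in both tests. Its values were 13.4, 7.72, 7.15, 18.4 and 24.4 in the lower group and 6.72, 3.38, 5.45, 5.58 and 4.45 in the upper group, with no overlap, a rho of -0.721 and a log2 difference of -1.20 ± 0.42. Both tests together, in the same direction, gave 86 of all genes (0.987%). ACSL1, which activates long chain fatty acids, had a rho of -0.661 and a log2 difference of -0.46 ± 0.29. GPAT4, with ACSL1 the most abundant tested members of the list, had a rho of -0.0788 and a log2 difference of 0.10 ± 0.28.

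Of 14 tested genes of lipid droplet coats and lipolysis, 6 had positive and 8 negative rho (median -0.00606), and without cat 35, 10 had positive rho (median 0.142). PLIN2, the droplet coat protein of muscle and liver, had 292 to 1504 in the lower group and 379 to 1700.5 in the upper group. PLIN3, singled out after its values were seen, had 6.27 to 67.7 and 45.5 to 151, a log2 difference of 1.31 ± 0.50 with overlap. Of 28 tested PPAR targets and genes of fatty acid oxidation, 11 had positive and 17 negative rho (median -0.145), and without cat 35 the median was 0.0167. FABP3, the fatty acid binding protein of heart muscle, differed by 0.07 ± 0.39 and ACADM, the medium chain acyl-CoA dehydrogenase, by -0.11 ± 0.21 on the log2 scale. Insulin and adipokine signalling genes, 24 tested, had 14 positive and 10 negative (median 0.0485, and 0.167 without cat 36).

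The cell type lists leaned in different directions, and none had a member that passed adjustment. In bulk tissue, fewer cells of a type and less RNA per cell cannot be told apart. The cardiomyocyte markers took 19.9 to 25.1% of reads in the lower group and 21.8 to 32.6% in the upper group. Of 29 tested, 23 had positive rho (median 0.212), and the median log2 difference was 0.31, beside -9.99e-05 over all genes. Centred on staining batches, 21 of 29 had positive rho (median 0.107), and centred on flow cells, 24 of 29 (median 0.345). TNNC1, cardiac troponin C, had 4619, 3090, 5329, 5115 and 3310 in the lower group and 3717, 7787, 7987, 5176 and 10836 in the upper group, with rho 0.661. TPM1, tropomyosin, had a rho of 0.709 and MYOZ2, a Z-disc protein, of 0.818, and these 3 of 29 were the members below an unadjusted p of 0.05 in the rank test, beside 3.1% of all genes (1.56% with positive rho). Cat 36 had the highest share, and without it 18 of 29 had positive rho (median 0.117), while without cat 35 it was 21 of 29 (median 0.35).

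Of 36 tested fibroblast and matrix genes, 33 had negative rho (median -0.194), where 50.4% of all genes had a rho above 0. At an unadjusted p of 0.05, 0 of the 36 passed either test, beside 3.1% of all genes in the rank test and 2.15% between groups, shares that would give about 1 gene in a list of this length. GSN, the most abundant tested member, had a positive rho of 0.321 and a log2 difference of -0.0026 ± 0.40. DCN, the proteoglycan decorin, had 372 to 666 in the lower group and 184 to 1308 in the upper group, a log2 difference of -0.28 ± 0.42. The share of reads overlapped, 0.285 to 0.576% in the lower group and 0.203 to 0.753% in the upper group, where cat 23 was the highest of all 10. Without cat 36, 13 of the 36 had positive rho (median -0.133), and without cat 35, 8 (median -0.267). The study's own measure of myocardial fibrosis, known for 8 cats, had a rho of 0.452 with the adipocyte percentage (exact permutation p = 0.267, adjusted p = 0.535, Pearson's r 0.244, p = 0.58, 0.644 without cats 35 and 36). Age, known for 9 cats, had a rho of -0.267 (exact permutation p = 0.493, adjusted p = 0.658, Pearson's r -0.364, p = 0.344, 0.46 without cats 31 and 36), and -0.638 centred on staining batches (p = 0.0528).

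Macrophage and monocyte markers had the lowest median rho of the lists. Of 19 tested, 18 had negative rho (median -0.358) and the median log2 difference was -0.64. C1QA, a chain of the complement component that tissue macrophages make, had 296, 98, 45.8, 97.8 and 58.1 in the lower group and 37.6, 33.8, 25.9, 101 and 53.4 in the upper group, a log2 difference of -1.06 ± 0.47. C1QC, another chain, differed by -1.09 ± 0.48, and both had overlapping groups. By limma these were the 2 of 19 below an unadjusted p of 0.05 between groups, beside 2.15% of all genes. C1QB, a further chain and the most abundant tested member, differed by -0.64 ± 0.47 (interval -1.66 to 0.37), also with overlap. With staining batch as a covariate the differences of C1QA and C1QB were -0.37 and -0.0029. Cat 35, the lowest in adipocytes, had the highest share of macrophage reads, 0.173%, beside 0.0272 to 0.0824% in the rest of its group and 0.0207 to 0.0752% in the upper group. Without cat 35, 6 of 19 had positive rho (median -0.133), and centred on staining batches, 8 of 19 (median -0.0112).

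**Figure D4:**
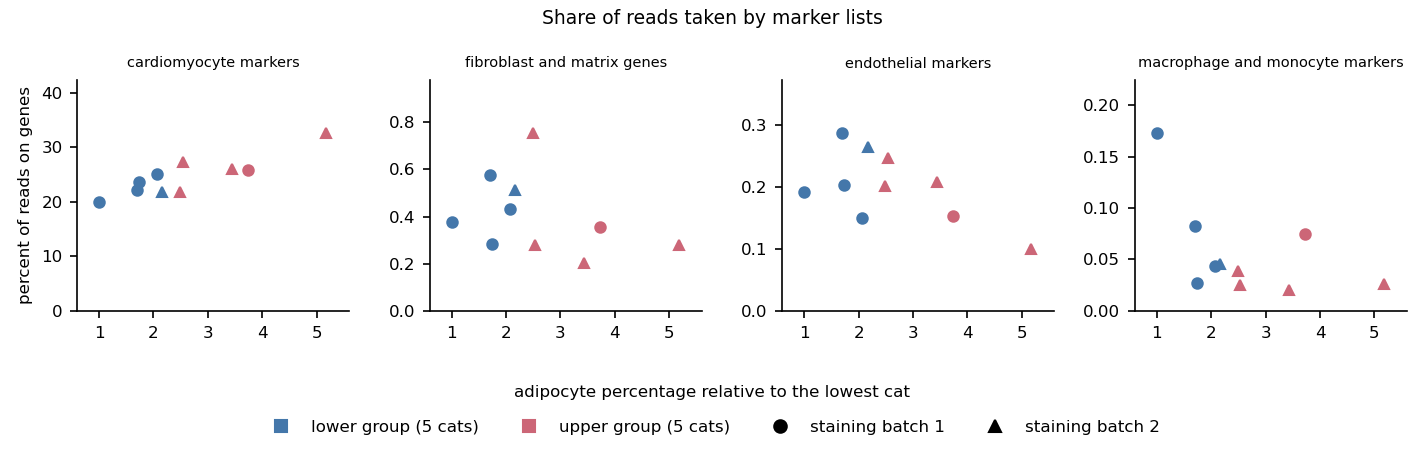
Percent of reads on genes taken by 4 marker lists (vertical axes from 0) against the adipocyte percentage relative to the lowest cat (horizontal axes), 1 point per cat, with triangles for the second staining batch. Cat 36, farthest right, has the highest cardiomyocyte share, 32.6%, and cat 35, farthest left, the highest macrophage share, 0.173%.

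Of 29 tested endothelial markers, 21 had negative rho (median -0.188), and without cat 36, 9 had positive rho (median -0.0667). TIE1, an endothelial receptor, had a rho of -0.733 with 6.62 to 20 in the lower group and 2.67 to 17.5 in the upper group. VWF, the von Willebrand factor gene, had a rho of -0.333 and overlapping values. Smooth muscle and pericyte markers, 15 tested, had 5 positive and 10 negative (median -0.212, and 0.0167 without cat 36). PLN, the most abundant of them, is also in the cardiomyocyte list and had a positive rho of 0.333. Markers of B and plasma cells had 3 tested genes of 23, T and NK cells 2 of 30, mesothelium and epicardium 3 of 24, Schwann cells and neurons 6 of 20 and erythrocytes 0 of 14, too few to describe.

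The complement and acute inflammation list had 4 positive and 12 negative of 16 (median -0.133), and 11 positive without cat 35 (median 0.0667). CLU, the extracellular chaperone clusterin, had a value of 2156 in cat 35, beside 75 to 276 in the other cats of its group and 171 to 284 in the upper group. Chemokines and their receptors had 5 positive and 3 negative of 8 (median 0.0303, and 0.108 without cat 36). The V-ATPase, the proton pump of lysosomes, had 12 positive and 13 negative of 25 (median -0.0182, and 0.0833 without cat 35), lysosomal membrane proteins and hydrolases 14 and 24 of 38 (median -0.0788, and 0.0583 without cat 35), and proton and bicarbonate transporters 5 and 8 of 13 (median -0.212, and -0.0167 without cat 35). Centred on staining batches, the median of the transporters was -0.0067. ATP6V1G1, a V-ATPase subunit, had 226 to 401 in the lower group and 284 to 406 in the upper group.

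**Figure D5:**
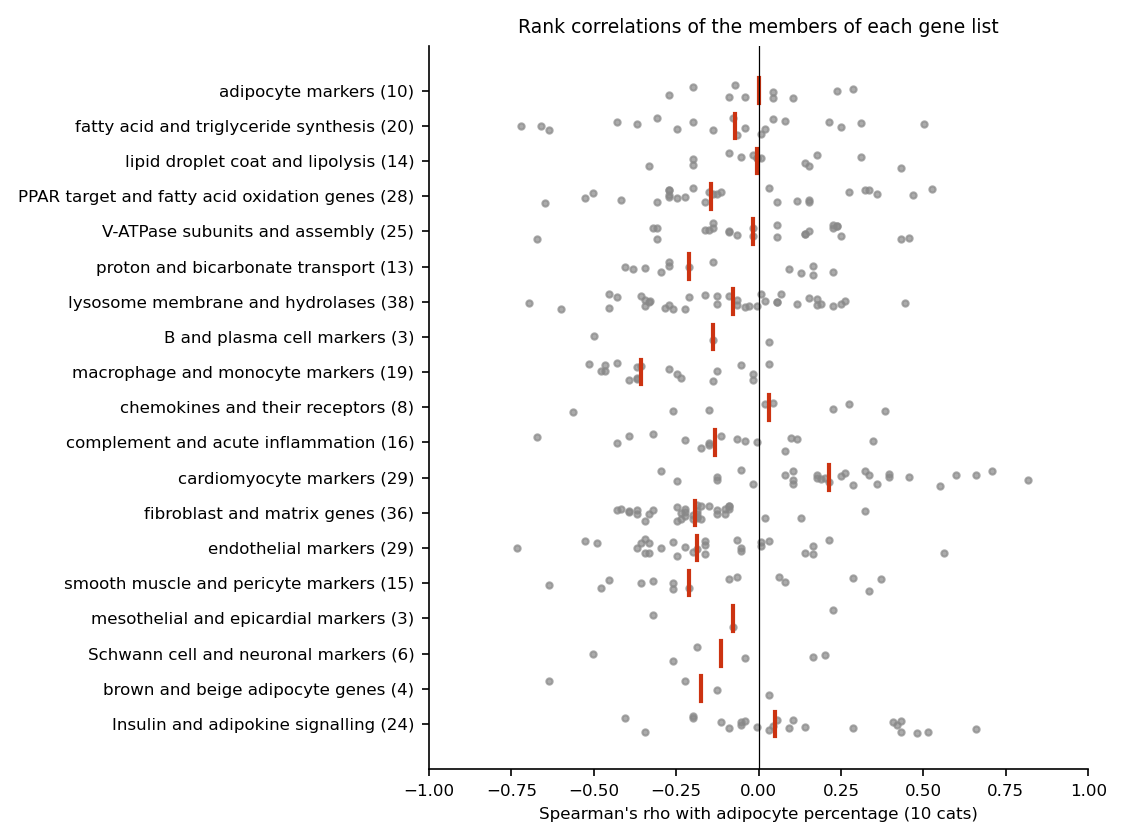
Spearman's rho with the adipocyte percentage over the same 10 cats (horizontal axis) for each tested member (grey points) of 19 gene lists with at least 3 tested members (rows, with their number), and the median of each list (red line). The adipocyte markers lie on both sides of 0 with a median of 0.00, the cardiomyocyte markers have a median of 0.212 and the macrophage markers one of -0.358.

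The part of staining batch, flow cell, outcome group and the single cats 35 and 36 in these values was not tested beyond the values given.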

How the data were processed

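Direct RNA libraries of feline left ventricle (Oxford Nanopore, 1 per cat) were analysed. Per the labels and methods, reads were basecalled with Guppy, filtered on quality, mapped with minimap2 to felCat9 and counted with featureCounts. The deposited signal is the read count of a gene divided by 1 size factor per library, since 100% of values were whole multiples of 1 read (tolerance 1e-06). Versions of the mapping and counting tools and the strand setting are not given in the sources used here, so overlapping and antisense genes cannot be told apart. Adipocyte percentages and traits came from the study's list of cats and staining batches from its methods, not from the labels. The libraries labelled cats 22 and 29, which are not among the sequenced cats that the study names (it names cats 16 and 25), entered only as an alternative.

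A gene was tested if 3 or more of the 10 libraries had 10 or more reads, which held for 8715 of 30785. Spearman's rho was tested by exact permutation over all orders of the cats. The 2 groups were compared by limma with an intensity trend on log2(value + 1), which understates changes of low genes. Adjusted p-values are Benjamini-Hochberg values over all genes. edgeR on the recovered whole reads called 0 genes after adjustment. Scripts were tested on simulated data.

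The members and lists were chosen with earlier results of these data known. Named were the 8 highest and 8 lowest rho, up to 5 genes per direction with the smallest limma p among those whose groups did not overlap, the 2 most abundant tested members of each list (described in part), all tested adipocyte markers, and list members below an unadjusted p of 0.05 in both tests. Of these, 1 gene is not reported here. Others, PLIN3, C1QC, TIE1, TNNC1, TPM1, MYOZ2 and markers below the filter, were chosen after their values were seen. Alternatives were other scalings, filters, pseudocounts, tests, covariates, splits and sets of cats. Software was matplotlib 3.10.9, scipy 1.17.1, pandas 2.3.3 and numpy 2.4.6 under Python 3.11.15, and DESeq2 1.42.0, edgeR 4.0.16 and limma 3.58.1 under R 4.3.3.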

Additional observations from a re-analysis of the deposited data

Results flagged for a closer look

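In 7 of 116 groups of 5 cats that were looked at (6.03%), 1 cat lay far from the other 4 by Dixon's criterion, which chance meets in about 1 of 20 groups. In the lower group, cat 35 had 0.407% of its reads on complement and acute inflammation genes, beside 0.0523 to 0.151% in the others. Cat 11 had 0.0416% on mesothelial and epicardial genes, beside 0.0034 to 0.014%. The value of UXS1 in cat 30 was 139, beside 50.4 to 67.2.

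In the upper group, cat 23 had 0.188% of reads on proton and bicarbonate transport genes, beside 0.0396 to 0.0737%, and 0.753% on fibroblast and matrix genes, beside 0.203 to 0.355%. The value of CTNNA3 in cat 36 was 129, beside 85.8 to 98.1. The value of CFD in cat 15 was 42.2, beside 1.34 to 6.8.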

How the results depend on the processing

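No paired analysis was possible because each cat gave 1 library and the labels carry no replicate numbers. The count of genes after adjustment was 0 under every alternative that was run for the groups, and for the rank correlation under all but 1: leaving out each cat in turn gave 0 to 1 genes, the 1 being ZNF654 without cat 11 (rho 1, adjusted exact permutation p = 0.048). Counts at an unadjusted p of 0.05 moved. For the rank correlation (270) they were 148 with 10 reads in all libraries and 589 with any gene that had a read. They were 174 (without cat 36) to 399 (without cat 31) when each cat was left out. Staining batch 1 alone, 5 cats, gave 74, and staining batch 2 alone, 5 cats, gave 261, of which 175 had positive rho. Over 5 cats without ties a rho of 0.9 has an exact permutation p of 0.0833, so only a complete order of the cats passes. For the groups (187) they were 78 and 497 under those 2 filters, 349 with flow cell as a covariate, 353 for reads without scaling, 461 with the libraries labelled 22 and 29 entered as cats 16 and 25 in either order, 445 for the upper 3 against the lower 7 cats, and 144 (without cat 30) to 295 (without cat 23) when each cat was left out. Without scaling, 7 of 258 genes of the rank test had positive rho. The filters changed the number of genes tested, and the single staining batches the number of cats. For the other moves the cause was not tested. Spearman's rho of the percentage with genes detected ran from -0.7 (without cat 37, exact permutation p = 0.0433) to -0.25 when each cat was left out. The 72 genes named by rule changed sign, or came to 0, in 180 of 1561 values of rho and in 168 of 1777 log2 differences under the alternatives, 42 genes in each case, and only ZNF654 passed an adjusted p of 0.05. The depth was a median of 27.5 reads per tested gene and library, and neither counting error nor the number of cats was tested as a reason for the absence of calls.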
